A study of Mus musculus with 3 samples.

Results

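T cells of the ascending aorta were taken from 3 droplet single-cell libraries and were chosen by measured values: barcodes that carried messenger RNA of the CD3 chains and little of other lineages. Each library was 1 pool of male C57BL/6J mice killed at P45: 3 WT mice, 3 Fbn1mgR/mgR mice (mgR) that make too little fibrillin-1 and develop thoracic aortic aneurysm, and 4 mgR mice that drank losartan, an antagonist of the angiotensin II type 1 receptor, at 0.6 g/L from P16 (mgR-LOS). The labels do not say whether the mgR pool drank vehicle. The mgR allele lowers fibrillin-1 in every tissue, and animals of a pool cannot be separated, so each group is 1 sample and no difference between groups could be tested. All intervals below are 95% intervals that cover counting error only, not the spread between mice. They are exact (Clopper-Pearson for shares, Poisson for levels, conditional binomial for ratios), except the Newcombe intervals of differences between shares.

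A barcode that held 600 to 5000 genes and at most 10% mitochondrial unique molecular identifiers (UMIs, each 1 captured transcript) passed. It was called a T cell when, per 10000 of its UMIs, Cd3d, Cd3e and Cd3g together reached at least 3, C1qa, C1qb and C1qc together stayed under 10, Cd79a was at 0, 6 contractile genes stayed under 100 and Dcn under 20. The rule left 232 T cells of 26158 barcodes: 21 of 5361 in WT, 135 of 8076 in mgR and 76 of 12721 in mgR-LOS. The median T cell held 4120, 4200 and 3295 UMIs in these libraries, and the T cells together held 103612, 691680 and 298952 UMIs. WT values therefore rest on few transcripts: 3 UMIs, the floor to which a count of 0 was set in ratios, stand for 29.0 UMIs per 1000000 (CPM) in WT, 4.34 in mgR and 10.0 in mgR-LOS. The exact upper bound of a count of 0 lies somewhat higher, at 35.6 CPM in WT. The libraries shared 22 (WT and mgR), 29 (WT and mgR-LOS) and 46 (mgR and mgR-LOS) barcode sequences, of which 1, 0 and 1 were T cells.

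T cells recognise antigen through a receptor made of either an alpha and a beta chain (constant regions Trac and Trbc1 or Trbc2) or a gamma and a delta chain (Tcrg-C genes and Trdc), which signals through the CD3 chains. Alpha-beta T cells develop in the thymus, where RAG1 and RAG2 cut and join receptor gene segments, and leave it as CD4 helper or CD8 cytotoxic cells. Gamma-delta T cells include subsets that settle in tissues before or around birth and make interleukin-17.

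Most members carried the T cell receptor machinery. CD3 set the membership, so its values are a description: the summed CD3 level of T cells had a median of 20.8 per 10000 UMIs in WT, 20.4 in mgR and 22.4 in mgR-LOS. The lowest members stood at 4.85, 3.25 and 3.04, and the highest barcodes that met every other limit but missed this one at 2.87, 2.89 and 2.94. Cd3g, a CD3 chain encoded on chromosome 9 (44969572 to 44980431, GRCm38), gave 975 CPM in WT (794 to 1184), 943 in mgR (872 to 1018) and 903 in mgR-LOS (799 to 1018). Trbc2, the constant region of the beta chain (chromosome 6, 41546730 to 41548352), had a UMI in 21 of 21, 123 of 135 and 71 of 76 T cells. In contractile smooth muscle barcodes, which should lack it, the share with a Trbc2 UMI was 0.358%, 0.818% and 0.365% although their median depth was 14373, 15127 and 8522 UMIs. Il7r, the receptor for the survival cytokine interleukin-7, had a UMI in 33.3% of WT, 74.1% of mgR and 46.1% of mgR-LOS T cells, and once the 41 barcodes described below were left out, in 46.7%, 75.2% and 70.2%.

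Ranked by the lowest of the 3 ratios to all other barcodes, with no test since the rule used the same cells, the leading genes of the T cells were Cd3d, Trdv4, Cd3g, Cd163l1, Trdc, Cd3e, Tcrg-C1, Lat, Krt83 and Icos. Of 888 genes at 100 CPM or more in the T cells of every library, 71 were at least 10 times higher than in the other barcodes in all 3. Beside the CD3 chains and the signaling adaptor Lat, 4 of those 10 leading genes belong to or mark gamma-delta T cells: Trdc and Trdv4 encode the delta chain's constant and a variable region, Tcrg-C1 a gamma chain constant region, and Cd163l1 is a scavenger receptor of interleukin-17-making gamma-delta cells.

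T cells were a larger share of the barcodes in mgR than in the other pools. They made up 0.392% of WT barcodes (0.243 to 0.598), 1.67% of mgR barcodes (1.40 to 1.98) and 0.597% of mgR-LOS barcodes (0.471 to 0.747). The share was 1.28 percentage points higher in mgR than in WT (Newcombe interval 0.950 to 1.61), and 1.07 points lower in mgR-LOS than in mgR (difference -1.07, -1.40 to -0.776). Between mgR-LOS and WT the difference of 0.206 points had an interval from -0.0329 to 0.407. With at most 5% mitochondrial UMIs the shares of WT and mgR-LOS rose to 0.650% and 0.764%. A share depends on every other cell of the suspension: contractile smooth muscle barcodes were 67.7%, 39.4% and 62.5% of those that passed.

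Among leukocytes the order was another. Of barcodes with a UMI of Ptprc, the pan-leukocyte phosphatase CD45, or called T cells, T cells were 15.0% in WT (21 of 140, 9.53 to 22.01), 7.57% in mgR (135 of 1783, 6.39 to 8.90) and 8.93% in mgR-LOS (76 of 851, 7.10 to 11.1). Macrophages, barcodes without CD3 and with the complement genes C1qa, C1qb and C1qc at 10 or more per 10000 UMIs, were 1.66% of WT, 11.6% of mgR and 4.32% of mgR-LOS barcodes. B cells, barcodes without CD3 and with Cd79a at 3 or more per 10000 UMIs, numbered 4, 153 and 8. T cells per 100 C1q macrophages were thus 23.6 in WT, 14.4 in mgR and 13.8 in mgR-LOS. The T cell number in mgR was higher beside a still higher number of macrophages and B cells.

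**Figure D1:**
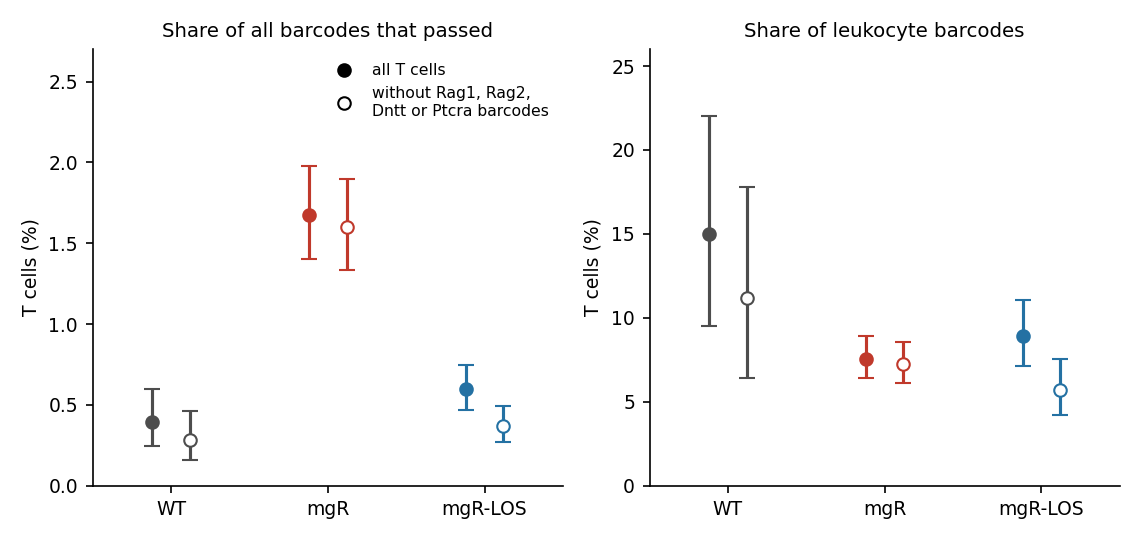
T cells as a percentage of all barcodes that passed (left) and of leukocyte barcodes (right) in each library; filled points show all T cells, open points those without a Rag1, Rag2, Dntt or Ptcra UMI, and bars are exact 95% counting intervals. On the left mgR stands at 1.67% above WT at 0.392% and mgR-LOS at 0.597%; on the right WT, at 15.0%, is the highest point with the widest interval.

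Part of the members did not look like mature T cells. They carried transcripts of the machinery that assembles receptor genes in the thymus: Rag1 (chromosome 2, 101638282 to 101649501), its partner Rag2, Dntt (terminal transferase, which adds bases at the joints; chromosome 19, 41029275 to 41059525) and Ptcra (the surrogate alpha chain of the immature receptor). A UMI of at least 1 of these 4 genes was in 6 of 21 WT T cells (28.6%, 11.3 to 52.2), 6 of 135 mgR T cells (4.44%, 1.65 to 9.42) and 29 of 76 mgR-LOS T cells (38.2%, 27.2 to 50.02). In the other barcodes the share was 0.169%, 0.340% and 0.372%. This split was chosen after the values were seen, so the figures that follow describe it and test nothing. No cell type name is given to these 41 barcodes.

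The 41 barcodes differed from the other 191 T cells in many genes the split did not use. Cd8b1, the CD8 beta chain, had a UMI in 37 of the 41 and in 13 of the 191. Both Cd4 and a Cd8 gene were found together in 15 of the 41 (1 in WT, 3 in mgR and 11 in mgR-LOS) and in 0 of the 191. Arpp21 had a UMI in 29 against 1, Ly6d in 23 against 0, the transcription factor Sox4 in 30 against 11, Cd24a in 26 against 8, the gut-homing and thymic receptor Ccr9 in 24 against 6, and the chromatin organiser Satb1 in 38 against 85. Coexpression of both co-receptors with Rag1 is known from double-positive thymocytes.

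Other genes were found less often in the 41 than in the 191. The interleukin-7 receptor gene Il7r had a UMI in 5 of 41 against 137 of 191, the chemokine receptor Cxcr6 in 2 against 116, the costimulator Icos in 2 against 120, S100a4 in 8 against 150 and the cytotoxic granule gene Nkg7 in 0 against 55. Genes of recirculating and resting T cells were among them, with S1pr1, a receptor for exit into the blood, in 0 against 50, its activator Klf2 in 10 against 73 and the lymphotoxin gene Ltb in 12 against 149. Among the 41, Cd3d had a UMI in 39, but CD3 set the membership of both groups. Trbc2, which the rule did not use, had a UMI in 41 of the 41 and 174 of the 191. The 41 barcodes were shallower in WT and mgR-LOS (median 1769.5 and 2019 UMIs, against 4940 and 3892 for the others) and deeper in mgR (6106.5 against 4200). At least 3 of 7 cell cycle genes had a UMI in 1, 1 and 8 of them and in 2, 7 and 3 of the others.

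**Figure D2:**
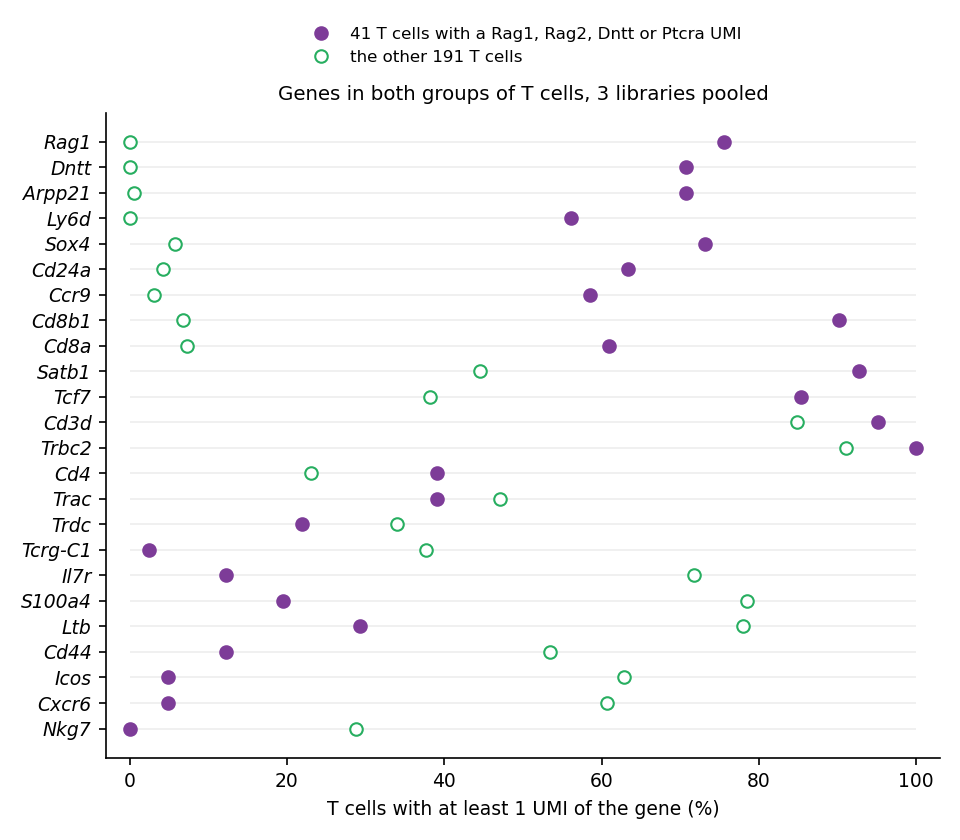
Percentage of T cells with at least 1 UMI of each gene, 3 libraries pooled, for the 41 T cells with a Rag1, Rag2, Dntt or Ptcra UMI (filled) and the other 191 (open). Rag1 and Dntt are at 0 in the others because they define the split; Arpp21, Ly6d, Sox4 and Cd8b1 lie far to the right in the 41, Il7r, Icos, Cxcr6 and S100a4 in the 191.

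Without the 41, the T cells numbered 15 in WT, 129 in mgR and 47 in mgR-LOS, or 0.280% (0.157 to 0.461), 1.597% (1.34 to 1.90) and 0.369% (0.272 to 0.491) of barcodes. As a share of leukocytes they stood at 11.2%, 7.26% and 5.72%. Without the 41 the interval of mgR stayed above those of WT and mgR-LOS for the share of all barcodes, while for the share of leukocytes the 3 intervals overlapped (6.402 to 17.8, 6.10 to 8.57 and 4.23 to 7.53). The origin of the 41 barcodes was not tested.

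For another set of members the T cell name was less certain. At least 2 of 6 genes known from group 2 innate lymphoid cells, which carry no antigen receptor, and in part from type 2 helper T cells (Il1rl1, the interleukin-33 receptor, the transcription factor Gata3, the cytokines Il5 and Il13, Areg and Calca) had a UMI in 3 of 21 WT, 19 of 135 mgR and 8 of 76 mgR-LOS T cells, none of them among the 41. In 17 of these 30 barcodes (2, 8 and 7) neither Trac nor Trdc was found. All 17 held Cd3g, which the rule forces on members without Cd3d and Cd3e. Cd3d was found in 1 of them and Cd3e in 0. Of all 44 barcodes outside the 41 with neither chain, the 17 included, 22 and 15 held them. Of the 147 barcodes outside the 41 with Trac or Trdc, 140 and 123 did. CD3 set the membership, so these values are a description. Of genes that did not choose this set, Klrg1, an inhibitory receptor, had a UMI in 8 of the 17 and 8 of the 147, and the ubiquitin ligase gene Rnf128 in 7 and 1. Trbc2 was in 14 of the 17, so it did not separate them from the rest. This set too was chosen after the values were seen, and no cell type name is given to them. Left out of all members, they lowered the T cell share to 0.354% in WT (0.214 to 0.553), 1.57% in mgR (1.31 to 1.87) and 0.542% in mgR-LOS (0.422 to 0.686).

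By receptor chain, the 191 T cells outside the 41 fell into cells with Trdc, cells with Trac, a few with both and a class with neither. Trdc, the delta chain constant region (chromosome 14, 54142851 to 54148868), without Trac, the alpha chain constant region (chromosome 14, 54220521 to 54224206), was found in 5 of 15 WT T cells (33.3%, 11.8 to 61.6), 37 of 129 mgR T cells (28.7%, 21.1 to 37.3) and 15 of 47 mgR-LOS T cells (31.9%, 19.1 to 47.1). These shares overlapped widely. Trac without Trdc was found in 5 (33.3%), 63 (48.8%) and 14 (29.8%). Both were found in 2, 2 and 4, and neither in 3 (20%, 4.33 to 48.1), 27 (20.9%, 14.3 to 29.0) and 14 (29.8%, 17.3 to 44.9). Of these 44 with neither chain, 40 held Trbc1 or Trbc2, and 17 were the barcodes with type 2 genes given above. Trdc had a UMI in 0%, 0.157% and 0.0126% of contractile barcodes. A gene of low level is easily missed in a shallow barcode, which takes cells out of a gate through the chain it asks for and adds cells through the chain it bars, so the shares are no bounds in either direction. Thinned to 1000 UMIs each, with 1 mgR-LOS barcode left out, all members held Trdc in 33.3%, 25.9% and 25.3%.

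Between the receptor groups the contrast was sharp. Over all members, 65 T cells held Trdc and no Trac, and 97 held Trac and no Trdc, of which 8 and 15 were among the 41. Trdv4, a delta variable region, had a UMI in 49 of the 65 (75.4%) and in 0 of the 97. Tcrg-C1 was found in 54 against 6, Cd163l1 in 48 against 4, and Blk, a kinase of interleukin-17-making gamma-delta cells, in 31 against 2. Tcrg-V6, the gamma variable region that pairs with Trdv4 in a subset of fetal origin, was found in 20 against 2.

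Il17a, the gene of interleukin-17A (chromosome 1, 20730905 to 20734496), had a UMI in 21 of the 65 (32.3%) and 3 of the 97. Pdcd1, the inhibitory receptor PD-1, was in 43 against 15, the interleukin-1 receptor Il1r1 in 27 against 5, Ramp1, part of the receptor for the neuropeptide CGRP, in 56 against 35, the thrombin receptor F2r in 42 against 15 and Actn2 in 46 against 8. Without the 41 barcodes, Il17a in the cells with Trdc and no Trac was at 470 CPM in mgR (13 of 37 cells) and 449 CPM in mgR-LOS (7 of 15 cells), and in 1 of 5 cells in WT. The group with Trac led in Cd4 (45 against 0), Ctla2a (45 against 2), Gimap7 (29 against 0), Tnfrsf4 (28 against 1) and the interferon-induced gene Ifi27l2a (65 against 6).

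**Figure D3:**
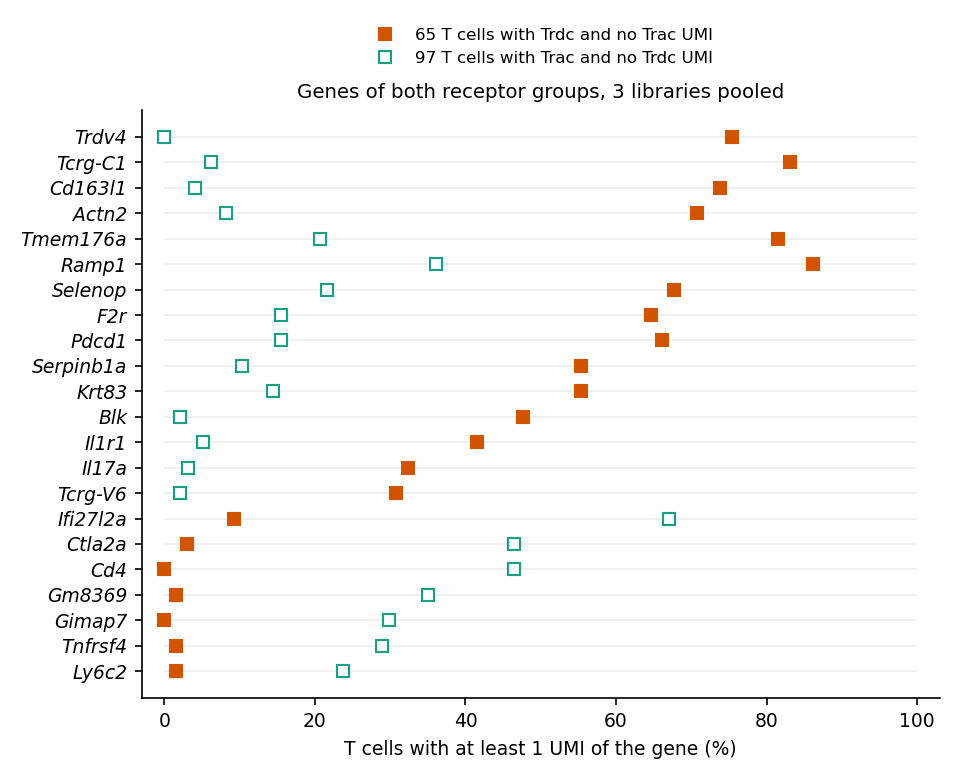
Percentage of T cells with at least 1 UMI of each gene, 3 libraries pooled, in the 65 T cells with Trdc and no Trac (filled) and the 97 with Trac and no Trdc (open). The upper 15 genes, from Trdv4 to Tcrg-V6, are more frequent in the first group; Ifi27l2a, Ctla2a, Cd4 and the genes under them in the second.

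The summed interleukin-17 list was highest in mgR-LOS, with the 41 barcodes and without them, but much of it was S100a4, which other cells also express. Its 14 genes, which include Il17a, the transcription factor Rora and the receptor Il23r, gave 3754 CPM in WT T cells (3391 to 4147), 3549 in mgR (3410 to 3693) and 4185 in mgR-LOS (3956 to 4423), led by S100a4, a calcium-binding protein of activated cells. Without the 41 barcodes the sums were 4553, 3630 and 6128 CPM. The order of WT and mgR turned within the receptor classes, where the sums were 5373, 7249 and 10073 CPM in cells with Trdc and no Trac and 823, 2249 and 3214 CPM in cells with Trac and no Trdc, lowest in WT in each. The same list gave 1213, 1540 and 1261 CPM in contractile barcodes and 2110, 1978 and 2258 CPM in C1q macrophages, so the WT cells with Trac lay under both. S100a4 held 171 of the 377, 1098 of the 2375 and 462 of the 1176 UMIs of the list in the T cells without the 41. At least 1 UMI of Il17a, Il17f, Il23r or Ccr6 was in 2 of 15 (13.3%), 22 of 129 (17.1%) and 15 of 47 (31.9%) T cells without the 41 barcodes, with intervals that overlapped. Il22, the gene of a cytokine that acts on barrier cells, was at 83.6 CPM in mgR-LOS T cells, from 25 UMIs in 3 cells, and at 1 UMI in each of the other pools.

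Co-receptor genes gave a less certain order. Cd4 (chromosome 6, 124864692 to 124888221) without Cd8 had a UMI in 3 of 15 WT T cells (20%, 4.33 to 48.1), 38 of 129 mgR T cells (29.5%, 21.8 to 38.1) and 3 of 47 mgR-LOS T cells (6.38%, 1.34 to 17.5). Cd8a or Cd8b1 without Cd4 was found in 0 (upper bound 21.8%), 17 (13.2%, 7.87 to 20.3) and 1 (2.13%, 0.0539 to 11.3). With the 41 barcodes kept, the Cd8 shares were 19.0%, 14.8% and 23.7%, so the split decides the order of the pools for Cd8. Thinned to 1000 UMIs each, all members held Cd4 without Cd8 in 14.3%, 6.67% and 4%, so no order of the pools can be read for Cd4. Foxp3, the master regulator of regulatory T cells (chromosome X, 7573644 to 7595245), had a UMI in 5 of 129 mgR T cells and in 0 of 15 and 0 of 47 of the others, for which the exact upper bounds are 21.8% and 7.55%. Once the 41 barcodes were left out, the mgR T cells were not deeper than those of WT, at a median of 4200 UMIs against 4940, and were slightly deeper than those of mgR-LOS at 3892.

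**Figure D4:**
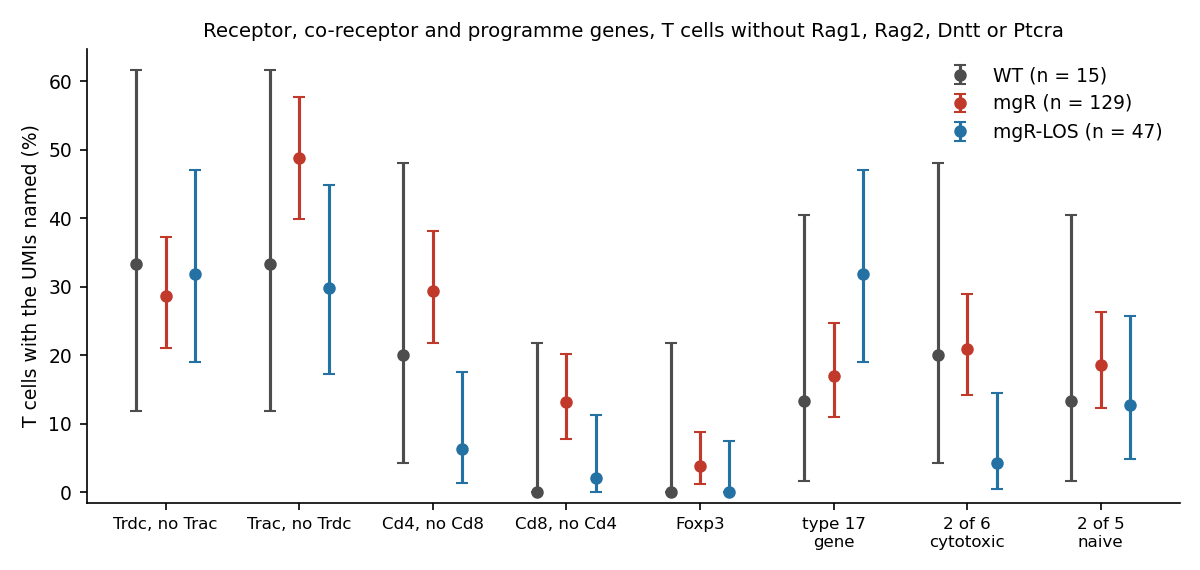
Percentage of T cells, without those with a Rag1, Rag2, Dntt or Ptcra UMI, that carry the receptor, co-receptor or programme genes named, for WT (15 cells), mgR (129) and mgR-LOS (47); bars are exact 95% counting intervals. Cells with Trdc and no Trac take 28.7% to 33.3% in each pool, while the Cd4, Cd8 and cytotoxic points of mgR, at 29.5%, 13.2% and 20.9%, lie above those of mgR-LOS.

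Several cytotoxic genes were high in WT through a few barcodes, and Ccl5 and Nkg7 were found in many mgR T cells. Ccl5, a chemokine of memory and cytotoxic T cells (chromosome 11, 83525778 to 83530518), stood at 1206 CPM in WT (1004 to 1437), 1365 in mgR (1279 to 1455) and 36.8 in mgR-LOS (18.4 to 65.8). Its UMIs came from 2 of 21 cells in WT, 35 of 135 in mgR and 4 of 76 in mgR-LOS. Nkg7, a cytotoxic granule membrane protein (chromosome 7, 43437073 to 43438249), had a UMI in 3, 48 and 4 cells and stood at 695, 386 and 50.2 CPM. Thinned to 1000 UMIs, 14.3%, 18.5% and 2.67% of T cells kept a UMI of Nkg7. In WT, 200 of the 376 UMIs of the chemokine Ccl4 were in 1 barcode and all of them in 2, and the granzyme gene Gzma had 50 of its 101 UMIs in 1 of 4. In mgR, Ccl4 was at 63.6 CPM in 12 cells and Gzma at 69.4 CPM in 6. The mean WT level of these genes therefore describes individual barcodes.

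At least 2 of 6 cytotoxic genes (Gzma, Gzmb, Gzmk, Prf1, Nkg7, Ifng) had a UMI in 3 of 15 WT (20%), 27 of 129 mgR (20.9%, 14.3 to 29.0) and 2 of 47 mgR-LOS T cells (4.26%, 0.520 to 14.5). No contractile barcode of WT or mgR met this. The 18 genes of the type 1 and cytotoxic list summed to 4913 CPM in WT, 2948 in mgR and 492 in mgR-LOS. In mgR they were higher in the Trac cells (3966 CPM) than in the Trdc cells (1284 CPM), while in WT the Trdc cells stood at 11799 CPM against 2653 (5 cells each), with 428 of the 437 UMIs in 2 barcodes. This pair held 6 and 7 of the 7 cell cycle genes and all 30 WT UMIs of the natural killer cell list. That list of 9 genes gave 290, 412 and 174 CPM over all members. Its defining gene Ncr1 had 0 UMIs in each pool and Klrb1c 0, 5 and 1, and its most abundant gene was Klre1 in WT and Fcer1g, a signaling adaptor shared with myeloid cells, in mgR and mgR-LOS. Ifng, the gene of interferon-gamma, had UMIs in 3, 15 and 3 T cells and stood at 232 CPM in WT (148 to 345), 145 in mgR (118 to 176) and 10.0 in mgR-LOS (2.07 to 29.3), with 18 of the 24 WT UMIs in 1 barcode outside that pair, which held Trac and Cd4.

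Over all genes, ratios of summed levels were taken for genes at 100 CPM or more in either pool with at least 20 UMIs in both together. Of 1607 genes tested for mgR over WT, 132 (8.21%) were at least 2-fold higher and 173 (10.8%) at least 2-fold lower, with a median ratio of 0.901. Without the top barcode of each gene in each library the counts were 200 higher and 100 lower. This alternative takes a larger part of the few WT T cells than of the mgR T cells, with totals kept. By itself it therefore tends to raise ratios of mgR over WT, so no turn of the balance can be read from it. Of 1592 for mgR-LOS over mgR, 135 (8.48%) were at least 2-fold higher and 116 (7.29%) lower, with a median of 1.06. In counts simulated with counting error alone, 6.48% of unchanged genes passed 2-fold either way for mgR over WT. For mgR-LOS over mgR this share was 0.444%. Both comparisons share the mgR library, so a gene that is high in mgR alone appears in each. Without the 41 barcodes the shares were 7.92% higher and 10.9% lower for mgR over WT, and 4.26% higher and 6.32% lower for mgR-LOS over mgR.

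Of the gene lists, the T cell receptor complex and its signaling molecules stayed near the median of all genes: 2 of 17 tested genes were at least 2-fold higher in mgR than in WT and 0 lower (median ratio 0.967), and 0 of 16 were higher and 1 lower in mgR-LOS than in mgR. This list includes Cd3d, Cd3e and Cd3g, whose level chose the members, so their likeness between pools is no finding. Of the list of regulatory T cell genes, 4 of 8 were higher and 0 lower in mgR over WT (median 1.73), with 3 of the 8 past the filter through mgR alone, and 1 was higher and 2 lower in mgR-LOS over mgR (median 0.620), where again 3 of the 8 passed through mgR alone, so these counts add nothing about the list. Tissue residency genes stood at 2 higher and 0 lower of 6 (median 1.48), then 0 higher and 2 lower of 6 (median 0.521). The 2 higher ones, Rgs1 and Itgb1, passed the filter through mgR alone, so that count adds nothing about the list. The order of the pools for both lists rested on the 41 barcodes: the summed regulatory list was 1216, 1707 and 1211 CPM with them and 1498, 1776 and 1813 without, and the residency list 1708, 2458 and 1893 CPM with them and 2029, 2523 and 2772 without, so that mgR-LOS was no longer under mgR, with counting intervals of these 2 pools that overlapped. The median ratios of mgR-LOS over mgR were then 0.905 and 0.785. Cell cycle genes went the other way, with 0 higher and 3 lower of 7 in mgR over WT (median 0.515) and 5 higher and 0 lower of 8 in mgR-LOS over mgR (median 2.31). Without the 41 barcodes the 11 cell cycle genes summed to 3986 CPM in WT, 2913 in mgR and 2595 in mgR-LOS, so mgR-LOS was no longer the highest. Of the 330 WT UMIs, 265 were in the 5 cells with Trdc and no Trac, which include the cycling pair described above, and in cells without Trdc the sums were 1624, 3515 and 3082 CPM, lowest in WT.

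Rag1 and Dntt, which define the split, led the genes higher in mgR-LOS than in mgR. Rag1 was at 135 CPM in WT T cells, 13.0 in mgR and 345 in mgR-LOS, 26.5 times higher in mgR-LOS than in mgR (13.4 to 59.5). Ranked by the lower bound, Dntt followed at 14.8-fold (8.03 to 29.98), then the predicted gene Gm4258 at 19.4-fold (7.70 to 62.9), Ccr9 at 16.5-fold (7.46 to 43.2), Ly6d at 13.1-fold (7.34 to 24.97) and Sox4 at 12.03-fold (6.87 to 22.5). The linker histone Hist1h1b was 6.74-fold higher (5.10 to 8.99). The 41 barcodes held all UMIs of Rag1 and Dntt, so these ratios follow from how many of them each pool held and from the level in them, where Rag1 was at 673, 241 and 962 CPM (in 5 of 6, 2 of 6 and 24 of 29 barcodes).

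With the 41 barcodes left out, 1456 genes were tested for mgR-LOS over mgR. Of these, 47 higher and 82 lower genes kept a 2-fold ratio when each gene's top barcode was dropped. Dropping it takes a larger part of the fewer mgR-LOS T cells, so it tends to lower these ratios. Among the higher were Lmo4, a transcriptional cofactor (537 against 138 CPM, 3.90-fold, 2.91 to 5.24), Areg, a growth factor of tissue-repair lymphocytes (349 against 90.2 CPM, 3.87-fold, 2.69 to 5.59) and Ramp1 (735 against 316 CPM, 2.32-fold, 1.86 to 2.89). Areg passed the filter through mgR-LOS alone and rested there on 7 barcodes, 1 of which held 37 of its 67 UMIs. It was 2.56-fold higher without the top barcodes (1.54 to 4.21), and the share of cells with a UMI was 14.9% in mgR-LOS and 15.5% in mgR. Areg also helped to choose the barcodes with type 2 genes, and 12 of the 17 with neither Trac nor Trdc held it. Those barcodes were 7 of 47 T cells in mgR-LOS and 8 of 129 in mgR. Among the lower were Ccl5, Ly6c2 (20.8 against 257 CPM, ratio 0.0812), a glycoprotein of memory CD8 T cells, Hopx (26.1 against 249 CPM, ratio 0.105) and Ms4a4b (182 against 656 CPM, ratio 0.278). Ccl5, Ly6c2 and Hopx were under 100 CPM in mgR-LOS and passed the filter through mgR alone, so they had to be lower. Ms4a4b passed it in both pools.

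Interferon-induced genes were higher in mgR T cells than in those of either other pool. Interferons raise the transcription of genes that carry interferon-stimulated response elements, bound by factors of the IRF family. The list held 11 genes, whose summed level was 647 CPM in WT T cells (501 to 821), 4002 in mgR (3854 to 4154) and 411 in mgR-LOS (342 to 491). Without the 41 barcodes the sums were 749, 4023 and 547 CPM. Each of the 11 was higher in mgR than in either other pool. For 9 of them the filter on levels was met in each comparison. Against WT 8 of the 9 met it through mgR alone, and against mgR-LOS 7 did, so these had to be higher in mgR and their number adds nothing.

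Ifi27l2a, a small mitochondrial protein gene induced by interferon (chromosome 12, 103442167 to 103443680), was the most abundant gene of the list in each pool. It was at 454 CPM in WT (333 to 603), 2228 in mgR (2118 to 2342) and 117 in mgR-LOS (81.5 to 163), with a UMI in 4 of 21, 76 of 135 and 13 of 76 T cells. Its ratio of 4.91 for mgR over WT was 2.92 without barcodes over 2 times the median depth, 3.38 with at most 5% mitochondrial UMIs and 9.28 without the top barcode of each pool, which in WT held 24 of its 47 UMIs. For mgR-LOS over mgR the ratio was 0.0525 and ranged from 0.0364 to 0.0721 under the alternatives run. In contractile barcodes the share with a UMI of it was 8.57%, 16.8% and 14.7% at their greater depth. Thinned to 1000 UMIs, 19.0%, 42.2% and 9.33% of T cells kept a UMI of Ifi27l2a. Bst2, a membrane protein that tethers virus particles, was in 3, 73 and 14 T cells at 29.0, 357 and 73.6 CPM, and 12.3 times higher in mgR than in WT (4.17 to 60.2). Isg15, a ubiquitin-like modifier, was in 2, 41 and 6 T cells at 19.3, 143 and 26.8 CPM. Ifit1, an RNA-binding antiviral protein, had 0, 110 and 2 UMIs, 40 of the 110 in 1 barcode. With WT set to the floor of 3 UMIs it was at least 5.49-fold higher in mgR, and without the 41 at least 4.34-fold, or 2.66-fold once the top barcode was also left out. Ifit3 had 0, 49 and 0 UMIs, in 18 mgR T cells.

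Promoters of several of these genes hold letters of the element. In RefSeq promoter windows of build GRCm38.p6, from 250 bases before to 50 after the start, the letters GAAANNGAAA were searched on both strands, where overlapping matches were counted separately. A window was found for 8 of the 11 genes and a match in 6 of them (Isg15, Ifit1, Ifit3, Bst2, Gbp2 and Gbp7), against 943 of 27025 windows (3.49%), 1 for each gene symbol. The 4 windows below are those of the genes with a match whose levels are given above; capitals mark matches, read as TTTCNNTTTC where they lie on the other strand.
Isg15: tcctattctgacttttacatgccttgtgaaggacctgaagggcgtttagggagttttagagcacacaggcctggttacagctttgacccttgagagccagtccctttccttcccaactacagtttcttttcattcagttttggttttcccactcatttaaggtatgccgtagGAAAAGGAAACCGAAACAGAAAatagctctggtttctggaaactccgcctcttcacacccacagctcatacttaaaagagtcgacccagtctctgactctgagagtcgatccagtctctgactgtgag
Ifit1: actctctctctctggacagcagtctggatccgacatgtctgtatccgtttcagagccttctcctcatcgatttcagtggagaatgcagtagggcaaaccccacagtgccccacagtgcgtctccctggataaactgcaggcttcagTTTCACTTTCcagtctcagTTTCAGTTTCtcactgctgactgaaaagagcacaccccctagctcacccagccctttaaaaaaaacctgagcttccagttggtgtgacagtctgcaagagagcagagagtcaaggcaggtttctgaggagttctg
Ifit3: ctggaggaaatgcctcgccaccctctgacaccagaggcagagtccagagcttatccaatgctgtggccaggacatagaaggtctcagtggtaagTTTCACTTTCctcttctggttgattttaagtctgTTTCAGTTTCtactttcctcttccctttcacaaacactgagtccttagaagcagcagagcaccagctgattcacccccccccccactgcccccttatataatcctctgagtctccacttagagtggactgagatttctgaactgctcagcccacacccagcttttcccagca
Bst2: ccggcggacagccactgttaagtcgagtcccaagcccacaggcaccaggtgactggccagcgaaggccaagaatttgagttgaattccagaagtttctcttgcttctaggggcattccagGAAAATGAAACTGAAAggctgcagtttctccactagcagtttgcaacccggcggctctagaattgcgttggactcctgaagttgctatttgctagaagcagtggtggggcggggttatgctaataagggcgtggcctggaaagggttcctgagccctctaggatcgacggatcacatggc
They lie at chr4:156200769-156201068 (minus strand), chr19:34640639-34640938 (plus), chr19:34583279-34583578 (plus) and chr8:71537423-71537722 (minus). The Isg15 window holds 3 overlapping matches in 1 run, the Bst2 window 2 overlapping ones, and the Ifit1 and Ifit3 windows 2 separate ones each. A match is a description of the letters and no measure of binding in these cells.

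Levels of the interferon list differed between T cell groups, and other leukocytes were also highest in mgR. In mgR the list summed to 5750 CPM in cells with Trac and no Trdc (5511 to 5996) and to 1152 CPM in those with Trdc and no Trac (987 to 1336), against 2195 and 216 in WT and 792 and 348 in mgR-LOS. Both groups were thus highest in mgR. In B cells the sum was 716, 3496 and 1472 CPM, in C1q macrophages 2701, 4453 and 3217 CPM, and in contractile barcodes 87.7, 163 and 162 CPM. All barcodes other than T cells gave 484, 1538 and 827 CPM. The WT sums of T and B cells rest on 67 and 13 UMIs. In WT the cells with Trac and no Trdc gave 48 UMIs (1619 to 2910.5 CPM). Those with Trdc and no Trac gave 8 UMIs (93.3 to 426 CPM), and each group was 5 cells.

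**Figure D5:**
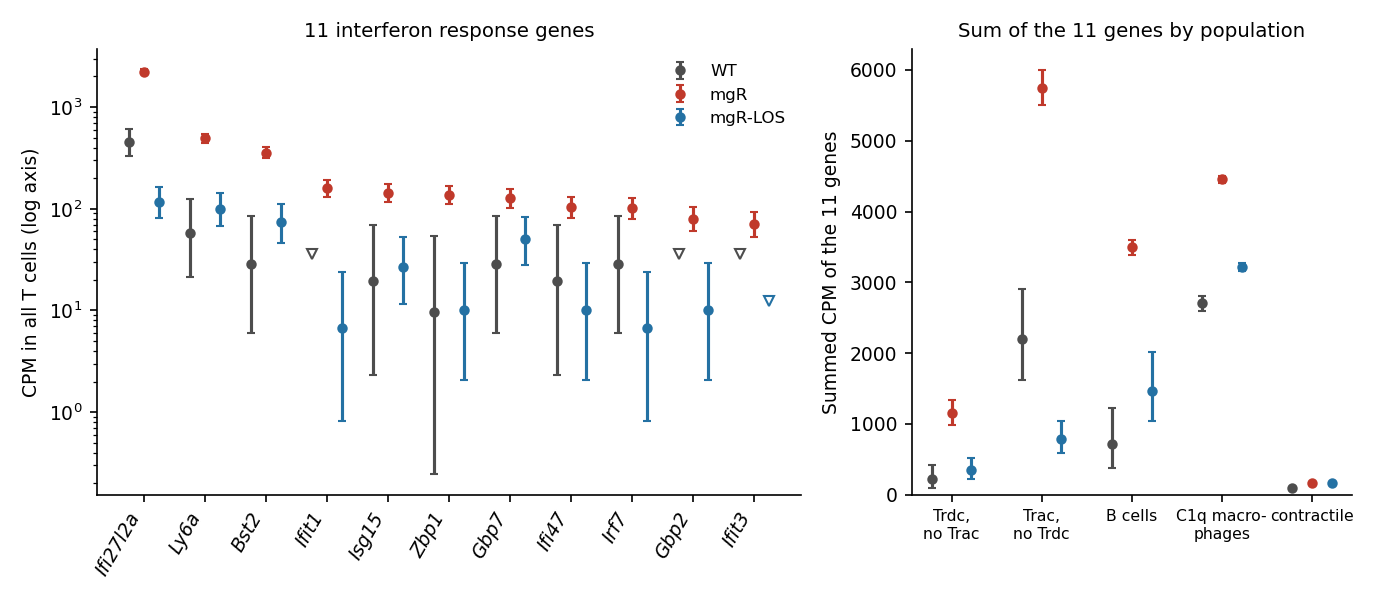
Left, level of each of the 11 interferon-induced genes in the T cells of each library, in CPM on a log axis, with exact 95% Poisson intervals; open triangles mark the upper bound where a gene had no UMI. Right, their summed CPM, on a linear axis, in T cells with Trdc and no Trac, T cells with Trac and no Trdc (both without the Rag1, Rag2, Dntt or Ptcra barcodes), B cells, C1q macrophages and contractile barcodes. On the left mgR is above both other pools for every gene; on the right mgR Trac cells reach 5750 CPM.

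Other genes also differed between mgR and WT. Without the 41 barcodes, 1566 genes were tested. Of these, 115 kept a ratio of 2 or more without their top barcode and 72 the reverse. Leaving it out takes a larger part of the few WT T cells and tends to raise these ratios, so the 2 counts cannot be set against each other. Not all of the 115 were in many cells: in mgR, H2-Ab1 had a UMI in 11 of 129 T cells and H2-Aa in 10. Ms4a6b was at 36.2 CPM in WT and 390 in mgR (10.8-fold, 3.64 to 52.5), Ctla2a, a protease inhibitor of activated T cells, at 48.3 and 477 (9.87-fold, 3.82 to 36.5), and Rgs1, a regulator of chemokine signaling and a residency gene, at 96.6 and 601 (6.22-fold, 3.12 to 14.5). Rgs1 was at 464 CPM in mgR-LOS. Ms4a6b, Ctla2a and Rgs1 were under 100 CPM in WT and passed the filter through mgR alone, so they had to be higher there. They had a UMI in 71, 54 and 87 of 129 mgR T cells and in 1, 3 and 4 of 15 in WT. The genes lower in mgR were led by Ccl3, Ccl4, Gzma and Xcl1, which passed the filter through WT alone. In WT they rested on 2, 2, 4 and 3 barcodes over all members.

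Of the costimulatory and checkpoint receptors, Icos and Ctla4 had their lowest values in WT, from few UMIs. Icos was at 164 CPM in WT (95.6 to 263), 419 in mgR (372 to 470) and 301 in mgR-LOS (242 to 370), and without the 41 barcodes at 205, 440 and 469 CPM. Over all members the Icos intervals of WT and mgR-LOS overlapped. Ctla4, the inhibitory receptor of activated and regulatory T cells, was at 19.3, 150 and 73.6 CPM, in 2, 38 and 11 cells. Pdcd1 was at 145, 145 and 201 CPM with overlapping intervals. S1pr1, the receptor by which T cells leave tissues for the blood, had a UMI in 2, 41 and 7 T cells at 38.6, 134 and 40.1 CPM. Genes of both residency and egress were thus present in mgR.

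RNA of other cells was present in the T cell barcodes. The 6 contractile genes summed to 1718, 1793 and 1867 CPM, led by Acta2. The rule capped these genes and removed 0, 10 and 10 barcodes through that limit, so their likeness between pools is no finding. The 8 fibroblast genes gave 280, 389 and 518 CPM. The 8 macrophage genes gave 38.6, 448 and 87.0 CPM, led by Lyz2, of whose 221 UMIs in mgR 121 were in 1 barcode. The 5 dendritic cell genes gave 19.3, 661 and 472 CPM, led by H2-Aa in mgR and mgR-LOS, found there in 12 and 4 cells. The 4 globin genes gave 9.65, 1543 and 60.2 CPM, and 631 of the 651 Hbb-bs UMIs of mgR were in 1 barcode. Ccl17 and Ccl22, chemokines of dendritic cells, had all their 141 and 109 mgR UMIs in 1 barcode. B cell genes gave 19.3, 96.9 and 161 CPM, neutrophil genes 0, 4.34 and 6.69, endothelial genes 29.0, 69.4 and 60.2, mast cell genes 19.3, 8.67 and 36.8 and Schwann cell genes 0, 1.45 and 0. At least 5 UMIs of Lyz2, Il1b, H2-Aa or globin were in 0, 8 and 2 of the T cells without the 41 barcodes. The macrophage and globin sums were highest in mgR, as the interferon list was. The dendritic sum was so over all members but stood at 24.2, 303 and 724 CPM without the 41, highest in mgR-LOS. Their part in the interferon values was not tested beyond the following: with all members that held at least 5 such UMIs left out, Ifi27l2a was 4.75 times higher in mgR than in WT and at 0.0375 times its mgR level in mgR-LOS.

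Transcripts of the losartan target pathway were almost absent. The 5 renin-angiotensin genes listed had 0, 3 and 1 UMIs in T cells, all from Ace, the angiotensin-converting enzyme, so that the angiotensin receptors themselves were not detected at this depth. The upper bound for the whole list in WT was 35.6 CPM.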

How the data were processed

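Ascending aortas were digested to single cells and read on the Chromium 3' v3.1 platform, 1 library for each pool of mice. The authors aligned and counted the reads with Cell Ranger and deposited raw UMI counts per gene and barcode as filtered matrices. The submitters' notes name Cell Ranger 6.0.1 and mm10, while per the file headers WT and mgR came from 5.0.1 and mgR-LOS from 6.0.1. Any effect of this difference cannot be told apart from the drug.

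Counts were filtered at 600 to 5000 genes and at most 10% mitochondrial UMIs. No doublet caller was run here. Counts were summed over the T cells of a library and scaled to CPM. Genes at 100 CPM or more in either library with 20 UMIs over both entered the ratios, whose intervals are exact (conditional binomial). A gene at 0 was set to 3 UMIs per library. With 1 library per group no test was made, and called means past 2-fold. Named genes were the 12 with the most extreme interval bound each way, among all genes and among genes higher in T cells, plus the gene lists. The members and lists were chosen with earlier results of these data known. Some items are not reported here and were left out of the lists. The scripts were tested on simulated data. Alternatives left out the Rag1, Rag2, Dntt or Ptcra barcodes, barcodes with type 2 genes and neither Trac nor Trdc, each gene's top barcode, deep barcodes, or barcodes with myeloid or globin UMIs, and changed filters, thinning and the fold. Analysis used Python 3.11.15, numpy 2.4.6, scipy 1.17.1, pandas 2.3.3 and matplotlib 3.10.9, and gene positions of GRCm38.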

Additional observations from a re-analysis of the deposited data

How the results depend on the processing

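No paired analysis was possible because each group is 1 pooled library and the labels give no shared replicate numbers. Of 123 shares recomputed, 112 stayed within the interval of the reported value. With at most 5% mitochondrial UMIs the T cell share was 0.650% in WT and 0.764% in mgR-LOS. Without the Rag1, Rag2, Dntt or Ptcra barcodes, an alternative added after seeing the data, mgR-LOS stood at 0.369% of barcodes and 5.72% of leukocytes, and the Cd8 share at 0% in WT and 2.13% in mgR-LOS. Requiring at least 2 Ptprc UMIs gave T cells as 9.47% of mgR and 12.5% of mgR-LOS leukocytes. Thinning to 1000 UMIs gave a Cd4 share of 6.67% in mgR, and to 2000 UMIs 13.0%, with a Cd8 share of 9.16%.

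For mgR over WT, 132 genes were higher and 173 lower. These counts were 280 and 493 at 50 CPM and 10 UMIs, 697 and 2585 with no filter, 200 and 100 without each gene's top barcode, and 78 and 49 at 3-fold. Leaving out the top barcode tends by itself to raise ratios over WT, which held far fewer T cells. For mgR-LOS over mgR, 135 were higher and 116 lower. These were 367 and 226 at the lower filter, 1394 and 993 with none, and 49 and 59 at 3-fold, and 62 were higher without the Rag1, Rag2, Dntt or Ptcra barcodes. Of 2161 ratios of single genes, 272 left the interval of the reported value or had none, and another 10 reversed. For mgR over WT, the reversed ones were Gzmb (3.56) and Stmn1 (1.13) without the deep barcodes, and Hba-a1 (0.300), Hbb-bs (0.999) and Igfbp5 (0.399) without the top barcode. For mgR-LOS over mgR they were Hba-a1 (1.16) and Hbb-bs (1.04) without the top barcode, and Pclaf (0.544), Tcf7 (0.770) and Top2a (0.861) without the Rag1, Rag2, Dntt or Ptcra barcodes. The cause was not tested where the left-out barcodes do not show it. Ifi27l2a kept its direction under each of them. Comparisons with WT rest on its 21 T cells.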
